A study of Mus musculus with 3 samples.

Results

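Solute carriers are the membrane proteins whose gene symbols start with Slc, and the mouse mitral valve matrix analysed here lists 53 of them among 3264 usable genes. They were taken by symbol alone (Slc followed by a digit), with earlier results of these data known. No measured value decided which genes entered. The matrix lists genes of chromosomes 1, 2 and 3, and 15 members lie on chromosome 1, 29 on chromosome 2 and 9 on chromosome 3, so carriers on other chromosomes were not analysed here.

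The 3 samples listed with the matrix are mitral valves of mgR mice (strain B6.129-Fbn1tm2Rmz/J) at 12 weeks of age. These mice are homozygous for a hypomorphic allele of Fbn1, which encodes fibrillin-1, and serve as a model of Marfan syndrome. The study also used WT littermates and mgR mice given rapamycin, but the barcodes of the pooled matrix name no mouse, genotype, treatment or library. The matrix was therefore treated as 1 sample, without tests, and whether its barcodes stand for cells or nuclei is not known.

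Solute carriers move ions, metals, amino acids, sugars, vitamins, nucleosides and metabolites across the plasma membrane and the membranes of organelles. Some work as exchangers or cotransporters driven by sodium, proton or chloride gradients, and others let their substrate pass down its own gradient. In the valve, fibroblast-like interstitial cells make the matrix, endothelial cells cover the leaflet, and macrophages and melanocytes lie within it.

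Cells were sorted by their own marker UMIs (unique molecular identifiers, which tag single transcripts). Fibroblasts had UMIs of at least 2 of the 3 genes Prrx1, Col3a1 and Dpt and none of Egfl7, endothelial cells had Egfl7 and fewer than 2 of those, and Ptprc cells had Ptprc and neither of these profiles. Melanocytes had at least 2 of Mlph, Pax3 and Gpr158 and were assigned first. This gave 3139 fibroblasts, 8956 endothelial cells, 469 Ptprc cells and 114 melanocytes of 16383 cells, with median depths of 6053, 5365, 4851 and 4572 UMIs. The 421 cells with fibroblast genes and Egfl7 and the 3284 cells that met no rule were left out. Of the markers fixed for each type, the leukocyte list summed to 50.3 UMIs per 10000 in Ptprc cells. In the other groups it summed to between 0.541 and 0.635. The fibroblast list summed to 47.03 in fibroblasts and 10.3 in endothelial cells, and the endothelial list to 14.65 in endothelial cells. These lists include the rule genes, so part of each contrast is fixed by the rule. Ptprc gave 15.91 of the leukocyte sum and Egfl7 7.197 of the endothelial sum. In fibroblasts, Prrx1, Col3a1 and Dpt gave 3.523, 5.654 and 2.91. All listed melanocyte markers are the genes of the rule itself, so that name has no independent check, and the Schwann cell gene Cdh19 stood at 9.23 in melanocytes and 0.836 in fibroblasts. The barcodes stand in a first run of 14222 and a second of 2161, with 11 barcodes in both, and values are also given within each run.

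Below, a level means a gene's summed UMIs in a group for every 10000 UMIs that the group's cells hold over all genes, with its 95% exact Poisson interval. Where a group had 0 UMIs, the limit given is the level of 3 UMIs, and the exact interval reaches 0.0152 in Ptprc cells and 0.0637 in melanocytes. Ratios of levels carry 95% exact intervals conditional on the summed UMIs, and all intervals cover counting error only, not differences between mice. A member was counted as higher or lower where its levels were at least 2-fold apart with at least 20 UMIs in both groups together. Of the 53 members, 41 had at least 100 UMIs, 11 had between 4 and 91, and Slc32a1, the vesicular carrier of inhibitory amino acids, had 0. The highest main group was fibroblasts for 14 of the 41, endothelial cells for 11, Ptprc cells for 12 and melanocytes for 4. Summed over all members, the level was 15.1 in fibroblasts, 12.8 in endothelial cells, 16.9 in Ptprc cells and 19.2 in melanocytes. Slc24a5 alone gave 9.59 of the melanocyte sum, which therefore does not show members to be generally higher there.

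With each cell thinned to 2000 UMIs, 93.0% of fibroblasts (95% exact binomial interval 92.1 to 93.9%), 89.0% of endothelial cells (88.3 to 89.7%), 94.2% of Ptprc cells (91.5 to 96.3%) and 94.1% of melanocytes (87.5 to 97.8%) had at least 1 member UMI. Without thinning the shares were 98.9%, 97.3%, 97.4% and 96.5%. Thinning left out 92 fibroblasts, 562 endothelial cells, 53 Ptprc cells and 13 melanocytes. A member UMI was thus found in nearly every cell of each group, and the groups differed in the levels of single members.

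Of the 53 members, 44 had a promoter in the RefSeq table (build GRCm38.p6). The 250 bases before the RefSeq start are shown for a member high in fibroblasts, a member high in melanocytes and a member high in Ptprc cells, each with matches to 1 motif in capitals, searched on both strands. For Slc7a11 the capitals are the amino acid response element TGATGCAA or its reverse complement, a sequence bound by ATF4 with C/EBP partners. For Slc24a5 they are the M-box core CATGTG, known from pigment cell promoters as a MITF motif, and for Slc11a1 the core GAGGAA of PU.1, a factor of myeloid cells.
Slc7a11, chr3:50443614-50443863, minus strand: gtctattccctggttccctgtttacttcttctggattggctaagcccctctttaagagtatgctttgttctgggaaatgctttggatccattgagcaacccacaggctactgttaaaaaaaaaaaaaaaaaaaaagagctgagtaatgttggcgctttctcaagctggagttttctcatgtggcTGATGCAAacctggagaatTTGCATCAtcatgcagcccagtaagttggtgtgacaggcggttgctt
Slc24a5, chr2:125067877-125068126, plus strand: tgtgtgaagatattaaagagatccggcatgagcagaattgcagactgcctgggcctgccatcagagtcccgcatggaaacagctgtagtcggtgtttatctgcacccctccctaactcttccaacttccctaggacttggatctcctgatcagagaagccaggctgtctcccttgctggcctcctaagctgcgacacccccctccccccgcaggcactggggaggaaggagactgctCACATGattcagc
Slc11a1, chr1:74374953-74375202, plus strand: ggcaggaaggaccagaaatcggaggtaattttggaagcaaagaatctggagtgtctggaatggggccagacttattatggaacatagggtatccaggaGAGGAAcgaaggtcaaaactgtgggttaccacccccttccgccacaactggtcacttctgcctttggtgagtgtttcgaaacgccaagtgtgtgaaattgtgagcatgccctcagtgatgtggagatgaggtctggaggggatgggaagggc
The Slc7a11 window held 2 matches, with first bases 66 and 47 bases before the start, where 0.791% of all 32851 promoters held at least 1. Among members with a promoter, 2 held it, the other being Slc50a1. The M-box core in Slc24a5 began 13 bases before the start. It was found in 12.3% of all promoters and in 5 of the 44 members with a promoter, Slc7a11 included. The PU.1 core in Slc11a1 began 152 bases before the start, and 23.3% of all promoters and 11 of the 44 members with a promoter held it. Of these members, Slc11a1, Slc28a2 and Slc39a12 were counted as higher in Ptprc cells. The others, Slc24a5 and Slc9a8 included, were not. These matches describe letters in the window and say nothing of binding.

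Fibroblasts against endothelial cells showed the sharpest contrast among the amino acid carriers. Slc7a11, the light chain of the cystine/glutamate exchanger that supplies cystine for glutathione, stood at 1.38 UMIs per 10000 (1.33 to 1.43) in fibroblasts and 0.0348 (0.0300 to 0.0402) in endothelial cells, 0.3996 (0.324 to 0.487) in Ptprc cells and 0.311 (0.184 to 0.491) in melanocytes. Its ratio of fibroblasts to endothelial cells was 39.6 (34.1 to 46.1), with 45.7 in the first barcode run and 31.9 in the second. With a stricter marker rule (all 3 fibroblast genes, or at least 2 Egfl7 UMIs and no fibroblast gene) the ratio was 122, from 39 endothelial UMIs in place of 187. Thinned to equal depth, 19.1% of fibroblasts and 0.453% of endothelial cells had a Slc7a11 UMI. Fibroblasts were highest in each run, apart from the other groups by more than counting error. Other genes overlap Slc7a11 on the same and on the opposite strand, and how overlapping reads were assigned is not given in the sources used here.

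Slc1a2, the plasma membrane glutamate carrier best known from astrocytes, followed the same order in these groups. It stood at 0.254 (0.233 to 0.276) in fibroblasts, 0.00596 (0.00408 to 0.00841) in endothelial cells, 0.0536 (0.0285 to 0.0916) in Ptprc cells and 0.0173 (0.000437 to 0.0961) in melanocytes, where 1 UMI was found. The ratio of fibroblasts to endothelial cells was 42.6 (29.8 to 62.9), and it was 47.2 and 24.3 in the first and second barcode run. With the stricter marker rule it was 138, from 7 endothelial UMIs in place of 32. Thus a cystine importer that releases glutamate and a glutamate importer were both highest in fibroblasts, whereas Slc7a14, a lysosomal protein of the cationic amino acid family, had its highest level in endothelial cells. Slc7a14 stood at 0.184 (0.173 to 0.196) in endothelial cells against 0.00577 (0.00298 to 0.0101) in fibroblasts, 0.0371 (0.0170 to 0.0704) in Ptprc cells and 0.0173 in melanocytes (1 UMI). Its ratio of fibroblasts to endothelial cells was 0.0313 (0.0161 to 0.0550).

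**Figure D1:**
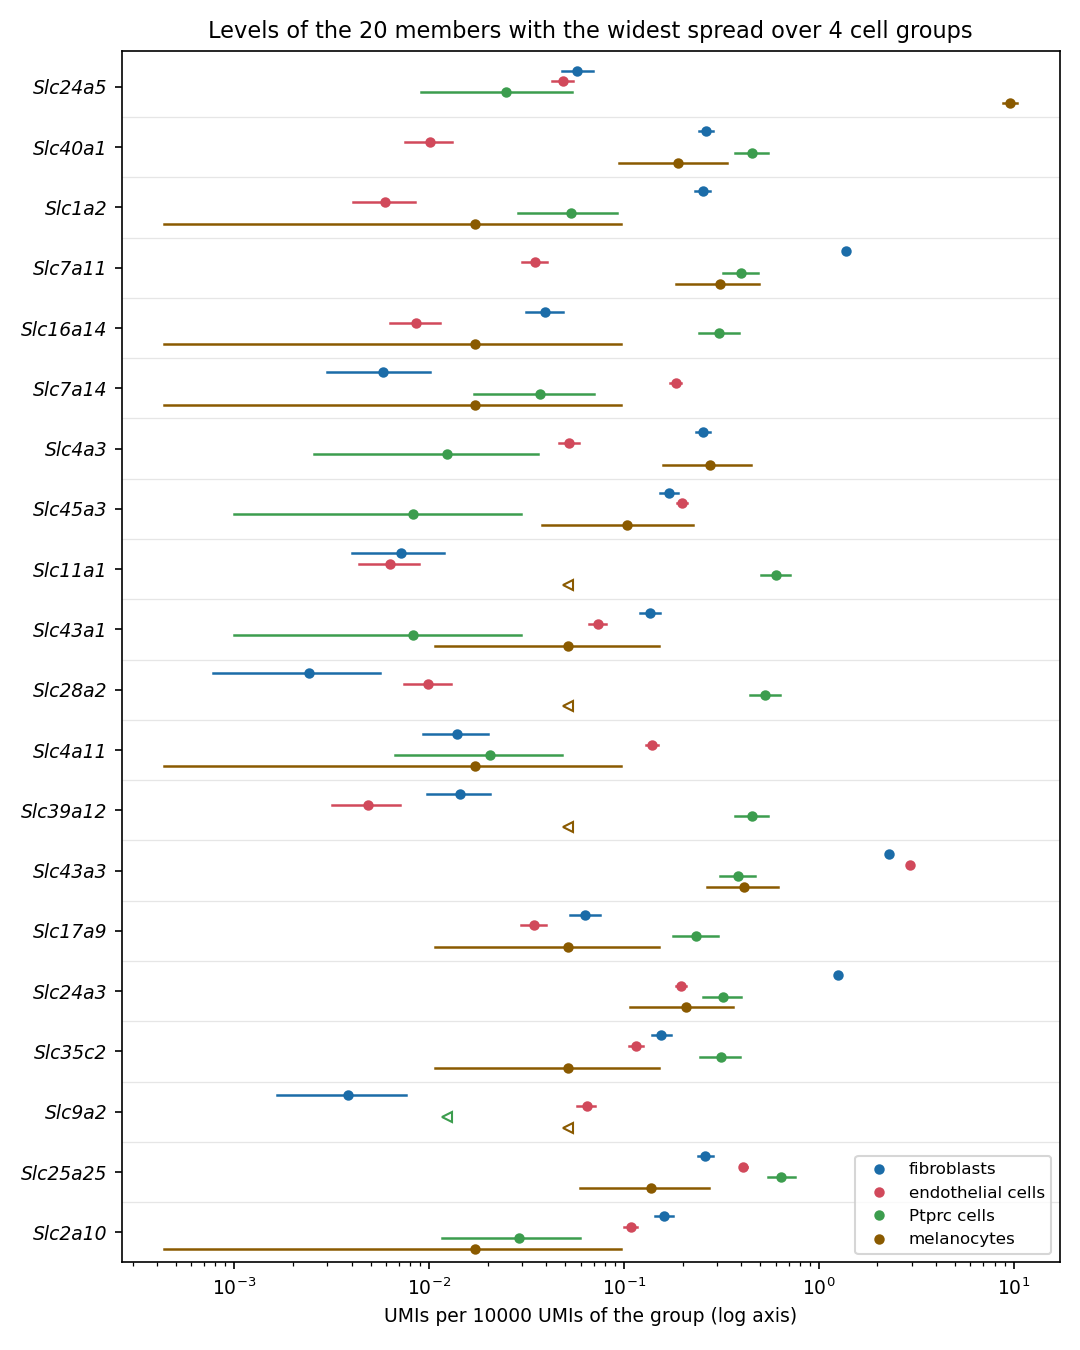
Levels of the 20 members with the largest ratio of highest to lowest group, in UMIs per 10000 UMIs of the group on a log axis. Points are levels in fibroblasts, endothelial cells, Ptprc cells and melanocytes, lines are 95% exact Poisson intervals, and open triangles mark groups with 0 UMIs at the level of 3 UMIs. Slc24a5 stands apart in melanocytes (9.59), Slc7a11 and Slc24a3 are highest in fibroblasts (1.38 and 1.25), and Slc11a1, Slc28a2 and Slc39a12 in Ptprc cells (0.601, 0.531 and 0.453).

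Both carriers of family 43 had another order. Slc43a3, a carrier of purine nucleobases, stood at 2.95 (2.90 to 2.995) in endothelial cells and 2.30 (2.24 to 2.37) in fibroblasts, against 0.383 (0.309 to 0.469) in Ptprc cells and 0.414 (0.265 to 0.616) in melanocytes. In fibroblasts its level was 2.09 in the first run and 4.20 in the second, so that the order of fibroblasts and endothelial cells changed between runs (2.92 and 3.07 in endothelial cells). Slc43a1, a carrier of large neutral amino acids, stood at 0.136 (0.121 to 0.153) in fibroblasts, 0.0732 (0.0661 to 0.0808) in endothelial cells, 0.00824 (0.000998 to 0.0298) in Ptprc cells and 0.0518 (0.0107 to 0.151) in melanocytes. Both were lowest in Ptprc cells, although the intervals for Ptprc cells and melanocytes overlapped for each.

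Over all members, 7 of the 45 with enough UMIs were higher in fibroblasts than in endothelial cells, and 8 were lower. Among all 2814 genes tested the same rule was met by 19.2% in the higher and 15.7% in the lower direction, and the members' shares, 15.6% and 17.8%, were near these. The median log2 ratio was 0.22 over members and 0.06 over all genes. Of the 18 other transporters listed (ATP-driven pumps, ABC, Slco and Mfsd proteins), 3 of 16 tested were higher in fibroblasts, Mfsd9 and Atp1b1 among them, and 2 lower (Atp2b4 and Slco4a1). The lower set of members was Slc9a2, Slc30a1, Slc28a2, Slc20a1, Slc4a11, Slc52a3, Slc13a3 and Slc7a14, and the higher set Slc40a1, Slc4a3, Slc16a14, Slc39a12, Slc1a2, Slc24a3 and Slc7a11. The interval of Slc13a3 held 1 (ratio 0.492, 0.123 to 1.46, from 4 and 21 UMIs). In the second barcode run 10 of these 15 had at least 20 UMIs in the groups compared, 5 of each direction, and each kept its direction there.

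**Figure D2:**
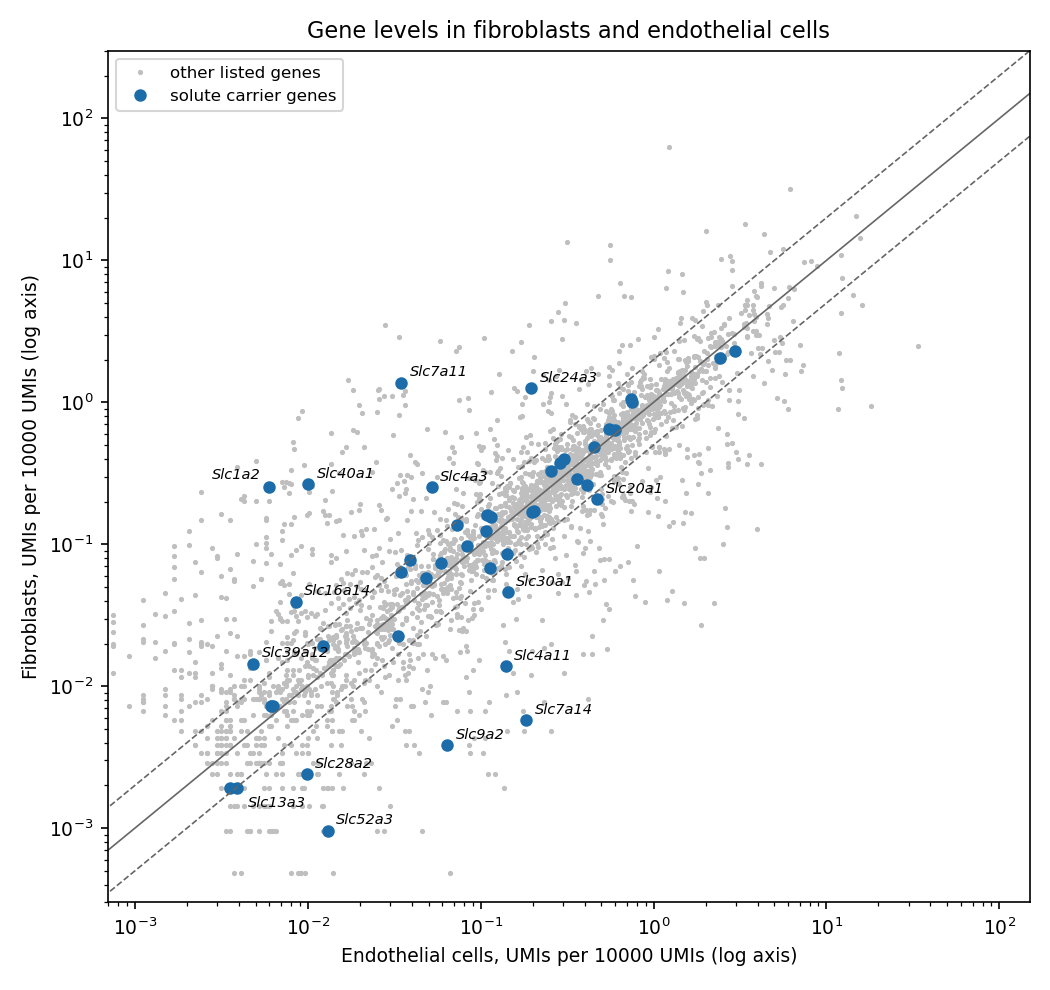
Levels in fibroblasts against endothelial cells, in UMIs per 10000 UMIs on log axes, for genes with at least 20 UMIs in both groups together and at least 1 UMI in each. Large points are solute carrier genes and small points other listed genes, the solid line marks equal levels and dashed lines 2-fold differences, and members past 2-fold are named. Among solute carrier genes, Slc7a11 and Slc1a2 lie farthest above the line (ratios 39.6 and 42.6) and Slc7a14 farthest below (0.0313).

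Among ion carriers, Slc24a3, a potassium-dependent sodium/calcium exchanger, was highest in fibroblasts. Its level was 1.25 (1.21 to 1.30) there, 0.196 (0.185 to 0.208) in endothelial cells, 0.321 (0.254 to 0.401) in Ptprc cells and 0.207 (0.107 to 0.362) in melanocytes, a ratio of fibroblasts to endothelial cells of 6.38 (5.94 to 6.86). Slc4a3, a chloride/bicarbonate exchanger, stood at 0.254 (0.233 to 0.277) in fibroblasts and 0.276 (0.158 to 0.448) in melanocytes, with 0.0523 (0.0464 to 0.0588) in endothelial cells and 0.0124 (0.00255 to 0.0361) in Ptprc cells. Its levels in fibroblasts and melanocytes did not differ beyond counting error, and the ratio of fibroblasts to endothelial cells was 4.86 (4.20 to 5.64).

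Slc4a11 and Slc9a2 went the other way. Slc4a11, of the bicarbonate carrier family and known from the corneal endothelium, stood at 0.140 (0.130 to 0.150) in endothelial cells and at 0.0139 (0.00933 to 0.02001), 0.0206 (0.00669 to 0.0481) and 0.0173 (0.000437 to 0.0961) in fibroblasts, Ptprc cells and melanocytes. The ratio of fibroblasts to endothelial cells was 0.0997 (0.0663 to 0.144), and 0.182 in the second barcode run. Slc9a2, a sodium/proton exchanger, stood at 0.0642 (0.0576 to 0.0714) in endothelial cells and 0.00384 (0.00166 to 0.00757) in fibroblasts, with 0 UMIs in Ptprc cells and melanocytes, which allows levels of up to 0.0124 and 0.0518. For Slc4a11 the endothelial level lay above the intervals of the other 3 groups, and for Slc9a2 above those of fibroblasts and Ptprc cells, whereas the interval for melanocytes overlapped the endothelial one.

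Slc9a8 was found broadly. This gene, a sodium/proton exchanger of the Golgi, stood at 0.650, 0.550, 0.593 and 0.242 in fibroblasts, endothelial cells, Ptprc cells and melanocytes. Slc20a1, a sodium-dependent phosphate importer, was highest in endothelial cells, at 0.472 against 0.208 in fibroblasts, 0.272 in Ptprc cells and 0.276 in melanocytes, a ratio of fibroblasts to endothelial cells of 0.440 (0.396 to 0.487).

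The metal carriers divided by group. Slc40a1 (ferroportin), the iron exporter of cells, stood at 0.453 (0.372 to 0.546) in Ptprc cells, 0.265 (0.243 to 0.288) in fibroblasts, 0.190 (0.0947 to 0.340) in melanocytes and 0.0101 (0.00755 to 0.0131) in endothelial cells. Its fibroblast level was 0.287 in the first barcode run and 0.0702 in the second, and the ratio of fibroblasts to endothelial cells was 26.3 (19.9 to 35.5) over both runs, 29.6 in the first run and 6.08 in the second. With cells that had a Ptprc UMI left out, the endothelial UMIs dropped from 54 to 24 and the ratio was 57.96. Endothelial cells were thus lowest in both runs, but by differing amounts. Zinc carriers did not share 1 order. Slc30a1, the zinc exporter of the plasma membrane, stood at 0.144 in endothelial cells, 0.128 in Ptprc cells, 0.0461 in fibroblasts and 0.0345 in melanocytes, with a ratio of fibroblasts to endothelial cells of 0.321 (0.257 to 0.397).

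Among the other zinc carriers, Slc39a10, a zinc importer of the plasma membrane, stood at 0.638, 0.599, 0.737 and 1.02 in fibroblasts, endothelial cells, Ptprc cells and melanocytes. Slc39a13, a zinc carrier of the secretory pathway that is mutated in a form of Ehlers-Danlos syndrome, stood at 0.399, 0.304, 0.218 and 0.207 in the same order. Slc39a1, another zinc importer, was found at 0.0850, 0.143 and 0.115 in the first 3 groups and at 0 UMIs in melanocytes, which allows a level of up to 0.0518. Slc30a4, a zinc exporter of vesicles, stood at 0.171, 0.204, 0.115 and 0.190, and Slc41a1, a magnesium carrier, at 0.329, 0.254, 0.165 and 0.224 in that order of groups.

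Ptprc cells were set against fibroblasts and endothelial cells together. Slc11a1 (Nramp1), which moves iron and manganese out of the phagosome of macrophages, stood at 0.601 (0.508 to 0.707) in Ptprc cells, at 0.00721 (0.00403 to 0.0119) in fibroblasts and 0.00633 (0.00438 to 0.00885) in endothelial cells, with 0 UMIs in melanocytes. Its ratio was 91.5 (65.8 to 129), with 103 in the first barcode run and 59.1 in the second. Slc28a2, a sodium-coupled importer of purine nucleosides, stood at 0.531 (0.444 to 0.631) in Ptprc cells, 0.00240 (0.000780 to 0.00561) in fibroblasts and 0.00987 (0.00739 to 0.0129) in endothelial cells, a ratio of 68.3 (49.7 to 94.8). Slc39a12, a zinc importer, reached 0.453 (0.372 to 0.546) in Ptprc cells, 0.0144 (0.00973 to 0.0206) in fibroblasts and 0.00484 (0.00316 to 0.00709) in endothelial cells, a ratio of 60.3 (43.3 to 84.8). Slc28a2 and Slc39a12 also had 0 UMIs in melanocytes, so for each of these 3 genes the Ptprc level lay above the limit of 0.0518 that 0 UMIs allow there.

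Slc13a3, a sodium-coupled importer of dicarboxylates such as succinate, belongs with them by its levels of 0.260 in Ptprc cells, 0.00192 in fibroblasts and 0.00391 in endothelial cells, a ratio of 77.4 (47.98 to 128) from 63 and 25 UMIs. Slc16a14, a monocarboxylate carrier family protein, stood at 0.309 (0.243 to 0.387) in Ptprc cells, 0.0394 (0.0313 to 0.0489) in fibroblasts, 0.00856 (0.00627 to 0.0114) in endothelial cells and 0.0173 in melanocytes (1 UMI), and Slc17a9, which loads nucleotides into secretory vesicles, at 0.235 (0.178 to 0.304), 0.0634 (0.0531 to 0.0752), 0.0344 (0.0297 to 0.0398) and 0.0518 (0.0107 to 0.151). Their ratios were 17.99 (13.3 to 24.1) and 5.52 (4.09 to 7.34). Thinned to equal depth, 11.3% of Ptprc cells had a Slc11a1 UMI, 9.13% one of Slc28a2 and 6.25% one of Slc39a12, whereas 0.197% of fibroblasts and 0.131% of endothelial cells had a Slc11a1 UMI.

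A clustering of all cells placed 46 cells that met the fibroblast rule and 103 that met the endothelial rule in the cluster holding 429 of the 469 Ptprc cells. When fibroblasts and endothelial cells with a Ptprc UMI were left out, the ratio was 486 for Slc11a1, 168 for Slc28a2, 132 for Slc39a12 and 472 for Slc13a3. With clusters in place of the marker rule these ratios were 358, 122, 99.7 and 210, and in the second barcode run 59.1, 39.5, 18.2 and 26.7. Without the cells that had a Ptprc UMI, the endothelial UMIs of Slc39a12 dropped from 26 to 2 and those of Slc16a14 from 46 to 17, while the fibroblast UMIs were 30 and 23 for Slc39a12 and 82 and 79 for Slc16a14 with and without them. The ratio of fibroblasts to endothelial cells was then 29.8 in place of 2.98 for Slc39a12, 12.1 in place of 4.60 for Slc16a14, 0.865 in place of 0.492 for Slc13a3, 0.118 in place of 0.243 for Slc28a2 and, as given above, 57.96 for Slc40a1. With clusters it was 5.01 for Slc39a12, 8.39 for Slc16a14 and 0.954 for Slc13a3, and with the stricter marker rule 7.07 for Slc16a14.

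In all, 10 of 45 members were higher in Ptprc cells, among them Slc40a1, Slc11a1, Slc16a14, Slc39a12, Slc28a2, Slc35c2, Slc13a3, Slc17a9 and Slc25a31, and 11 were lower (Slc9a2, Slc4a3, Slc19a3, Slc45a3, Slc43a1, Slc43a3, Slc24a5, Slc4a11, Slc2a10, Slc7a14 and Slc27a3). Over 2856 genes the shares were 17.3% higher and 26.1% lower, against 22.2% and 24.4% of members, and the median log2 ratio was -0.13 over members and -0.12 over all genes. Slc40a1 had a ratio of 5.58 (4.51 to 6.85). Slc45a3 (prostein), named from prostate, was among the lower ones at 0.00824 (0.000998 to 0.0298) in Ptprc cells against 0.170 (0.153 to 0.189) in fibroblasts, 0.198 (0.187 to 0.211) in endothelial cells and 0.104 (0.0380 to 0.225) in melanocytes, a ratio of 0.0432 (0.00523 to 0.157) from 2 UMIs in Ptprc cells. With clusters in place of the marker rule the ratio of Slc45a3 was 0.1895, from 12 UMIs, and that of Slc43a3 0.266 in place of 0.138. Slc9a2, with 0 UMIs in Ptprc cells, was at least 3.83-fold lower there by the level of 3 UMIs, and the exact interval of its ratio ran from 0 to 0.323. The intervals of Slc19a3 (0 to 1.09) and Slc24a5 (0.177 to 1.07) held 1. In the second barcode run, 18 of the 21 had at least 20 UMIs in the groups compared, and each of the 18 kept its direction. Of the other transporters, 4 of 16 were higher in Ptprc cells (Slco5a1, Mfsd9, Atp8b4 and Mfsd1) and 3 lower, Atp1b1 and Atp9a among them. The interval of Mfsd9 held 1 (0.9955 to 4.369, from 9 UMIs in Ptprc cells). The 15 UMIs of Slco5a1 in Ptprc cells were all in the first barcode run.

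**Figure D3:**
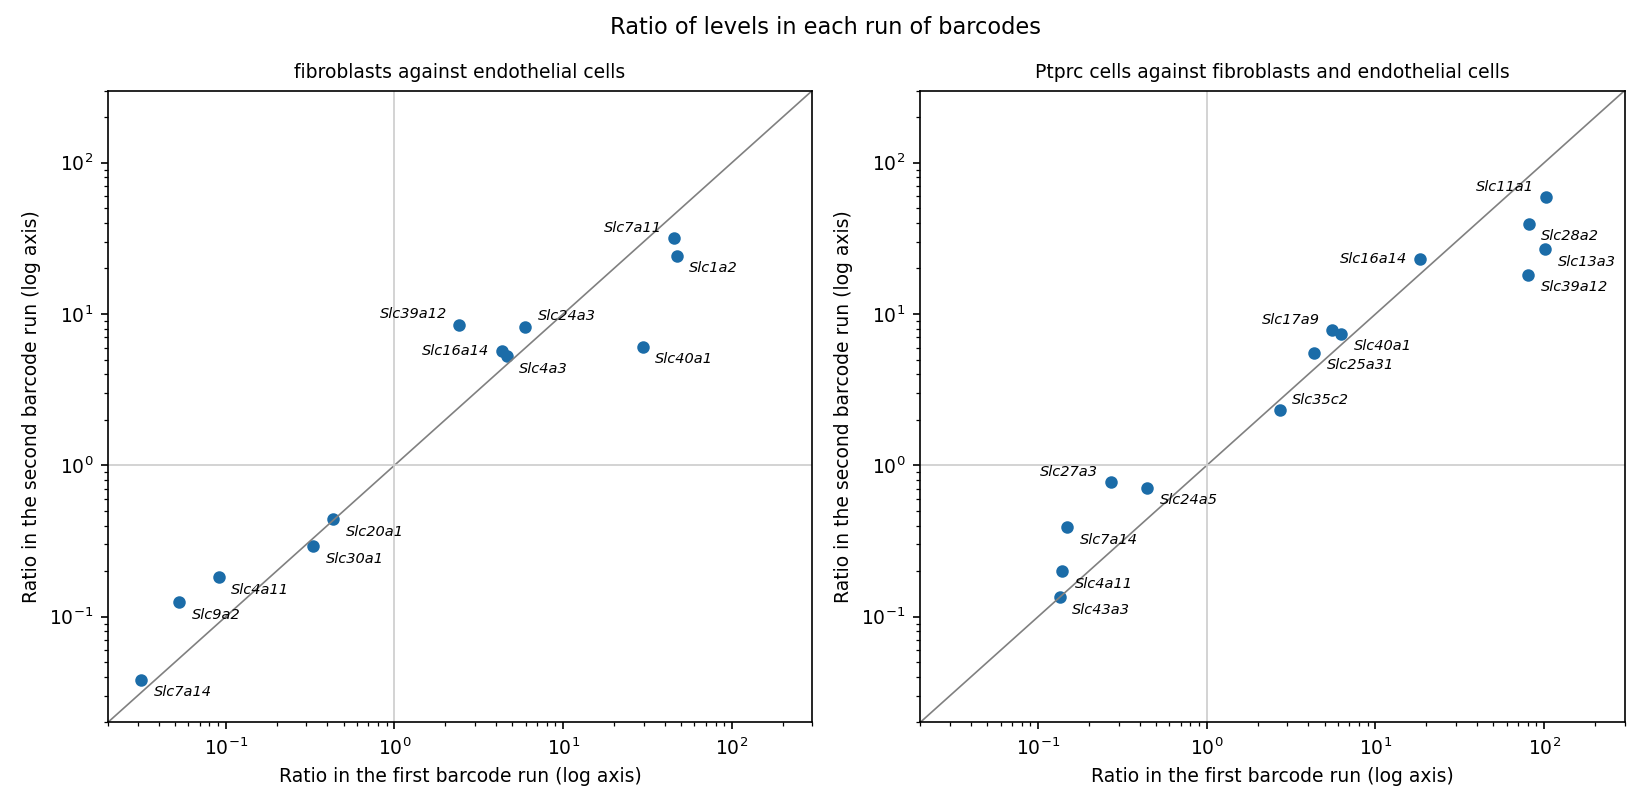
Ratio of levels in the first barcode run against that in the second, on log axes, for members past 2-fold between fibroblasts and endothelial cells (left, 12 of 15) and between Ptprc cells and both together (right, 14 of 21). Members with 0 UMIs in a group of either run and 1 other member are not drawn, and the line marks equal ratios. Each drawn member lies on the same side of 1 in both runs, with Slc40a1 (left) and Slc39a12 (right) farther from the line at 29.6 against 6.08 and 80.5 against 18.2.

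Within Ptprc cells, 303 had a UMI of Mrc1, the mannose receptor of resident-type macrophages, and 166 had none. Slc40a1 stood at 0.601 (0.490 to 0.730) in Mrc1-positive and 0.110 (0.0473 to 0.216) in Mrc1-negative cells, a ratio of 5.49 (2.68 to 13.1). Slc39a12 (0.595 against 0.123), Slc28a2 (0.666 against 0.219) and Slc13a3 (0.342 against 0.0685) were higher in Mrc1-positive cells too, with ratios of 4.83 (2.45 to 10.9), 3.04 (1.79 to 5.50) and 4.99 (2.02 to 15.95). In the second barcode run the ratio of Slc39a12 was 1.68, from 9 and 3 UMIs. With clusters in place of the Ptprc rule, still split by Mrc1 UMIs, the ratio of Slc40a1 was 11.1 and that of Slc28a2 2.02. Median depth was 5164 UMIs in Mrc1-positive and 4019 in Mrc1-negative cells, and a cell without a UMI may still express Mrc1. The T cell gene Cd247 stood at 1.44 in Mrc1-negative cells, in 16.3% of them, and at 0.0118 in Mrc1-positive cells. The Mrc1-negative group was thus not made up of macrophages alone.

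Lower in Mrc1-positive cells were Slc30a1, Slc43a3, Slc24a3, Slc35c2, Slc7a11 and Slc50a1, with ratios between 0.193 and 0.492. Together 4 of 27 members were higher and 6 lower, where 7.56% of 1760 genes were higher and 13.4% lower. For Slc7a11 the difference was confined to the second barcode run: its UMIs in Mrc1-negative cells were 7 in the first run and 60 in the second, and its ratio was 0.976 in the first and 0.112 in the second. Its level in Mrc1-negative cells was 0.152 and 2.23 in these runs, in 6.02% of the cells over both. Other genes also differed between the runs in these cells. Il1b, of the leukocyte list, stood at 0.477 and 11.04, and Cd247 at 1.19 and 1.86. Whether this bears on Slc7a11 was not tested. Of the other transporters, 0 of 9 were higher and 2 lower (Atp2b4 and Atp8b2), by the same rule without a test.

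Fibroblasts were split by Scn7a, a sodium channel gene that marks a part of them, into 790 positive and 2349 negative cells. Slc24a3 stood at 2.04 (1.92 to 2.16) in Scn7a-positive and 0.960 (0.911 to 1.01) in Scn7a-negative cells, a ratio of 2.13 (1.97 to 2.30) that was 2.22 in the first barcode run and 1.53 in the second. Slc20a1 stood at 0.119 (0.0921 to 0.151) and 0.241 (0.217 to 0.267), a ratio of 0.494 (0.375 to 0.642). The calcium exchanger was thus higher and the phosphate importer lower in Scn7a-positive fibroblasts, each close to the 2-fold limit. Slc7a11 stood at 1.16 (1.07 to 1.25) and 1.46 (1.40 to 1.52), within 2-fold.

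In this split 2 of 37 members were higher in Scn7a-positive cells (Slc16a14 and Slc24a3) and 3 lower (Slc39a12, Slc20a1 and Slc4a11), near the 4.89% and 6.51% of all 2473 genes. Slc16a14 had a ratio of 2.003 (1.26 to 3.17) from 35 and 47 UMIs, and Slc39a12 and Slc4a11 rested on 3 and 4 UMIs in Scn7a-positive cells, with ratios of 0.299 (0.0580 to 0.971) and 0.430 (0.109 to 1.25). Among the other transporters 1 of 15 was higher and 0 lower. The median log2 ratio was -0.03 over members and over all genes.

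Endothelial cells were split by UMIs of 1 of 3 gene pairs. The pair Prox1/Kif26b gave 2715 cells, Tmem163/Kcnh1 725 and Selp/Fmo2 1340, and the 1572 cells with no pair and 2604 with several were left out of the split. Slc7a14 stood at 0.441 (0.409 to 0.475) in Prox1/Kif26b cells, 0.0863 (0.0616 to 0.118) in Tmem163/Kcnh1 cells and 0.0127 (0.00582 to 0.0242) in Selp/Fmo2 cells. Its ratio of Prox1/Kif26b cells to the other two groups was 10.5 (7.88 to 14.4), and it was 9.19 in the first barcode run. In the second run it had 167 UMIs in Prox1/Kif26b cells and 0 in the other two groups. Slc4a11 stood at 0.224 (0.201 to 0.248), 0.0561 (0.0366 to 0.0822) and 0.0848 (0.0647 to 0.109) in the same order, a ratio of 3.05 (2.40 to 3.90). The intervals of the 3 groups were apart for Slc7a14, whereas for Slc4a11 those of the Tmem163/Kcnh1 and Selp/Fmo2 cells overlapped.

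The nucleobase and amino acid carriers of family 43 were both highest in Selp/Fmo2 cells, where Slc7a14 was lowest. Slc43a3 stood at 1.83 (1.76 to 1.89) in Prox1/Kif26b cells, 2.78 (2.63 to 2.94) in Tmem163/Kcnh1 cells and 4.32 (4.17 to 4.48) in Selp/Fmo2 cells, and thinned to equal depth 25.5%, 36.4% and 49.8% of these cells had a UMI. Slc43a1 stood at 0.0486 (0.0384 to 0.0608), 0.0496 (0.0314 to 0.0744) and 0.143 (0.116 to 0.174), with overlapping intervals in Prox1/Kif26b and Tmem163/Kcnh1 cells. In Selp/Fmo2 cells against the other two groups the ratios were 2.12 (2.02 to 2.22) and 2.92 (2.20 to 3.89). Selp encodes P-selectin, an adhesion protein of activated and venous endothelium. Of the Selp/Fmo2 cells, 36.7% had a Selp UMI and the others entered by Fmo2 alone. Both carriers were higher in this group as a whole, and its Selp-positive cells were not compared apart.

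Tmem163/Kcnh1 cells had the highest level of 3 members. Slc24a3 stood at 0.401 (0.346 to 0.463) there and at 0.119 in each of the other two groups, a ratio of 3.38 (2.79 to 4.09). Slc27a3, which activates and takes up fatty acids, had a ratio of 2.33 (1.79 to 3.01), at 0.192 against 0.0825, and Slc9a2 one of 2.32 (1.60 to 3.32), at 0.0992 against 0.0428. Slc45a3 was lower, at 0.0647 (0.0437 to 0.0924) against 0.251 in Prox1/Kif26b and 0.221 in Selp/Fmo2 cells, a ratio of 0.268 (0.179 to 0.387). Clusters were also used in place of the endothelial marker rule, with the same gene pairs splitting them. The ratios of Slc9a2 (1.74) and Slc27a3 (1.98) were then under 2-fold. In the second barcode run Slc9a2 had 2 UMIs in Tmem163/Kcnh1 cells.

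By the same rule, 2 of 39 members were higher in Prox1/Kif26b cells (Slc4a11 and Slc7a14) and 3 lower (Slc43a1, Slc43a3 and Slc52a3), where 4.43% and 7.68% of all 2461 genes were. In Tmem163/Kcnh1 cells 3 were higher and 4 lower (Slc40a1, Slc45a3, Slc4a11 and Slc7a14), where 6.62% and 9.55% of all genes were, and in Selp/Fmo2 cells 4 were higher (Slc43a1, Slc43a3, Slc52a3 and Slc7a11) and 2 lower (Slc4a11 and Slc7a14), where 5.69% and 5.61% were. These comparisons share cells, so 1 gene that is high in a single group is counted as lower in another. Slc40a1 (2 UMIs in Tmem163/Kcnh1 cells, ratio 0.395, 0.0454 to 1.59) and Slc52a3, a riboflavin importer, in Selp/Fmo2 cells (15 UMIs, 0.991 to 4.21) had intervals that held 1. Slc7a11 in Selp/Fmo2 cells rested on 26 UMIs, of which 15 were in the second run, and its ratio of 2.28 was 1.196 in the first run alone. Of 16 other transporters tested in each comparison, 1 was higher in each, Atp9a in Prox1/Kif26b and Slco4a1 in Tmem163/Kcnh1 cells, and 2, 2 and 1 were lower.

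**Figure D4:**
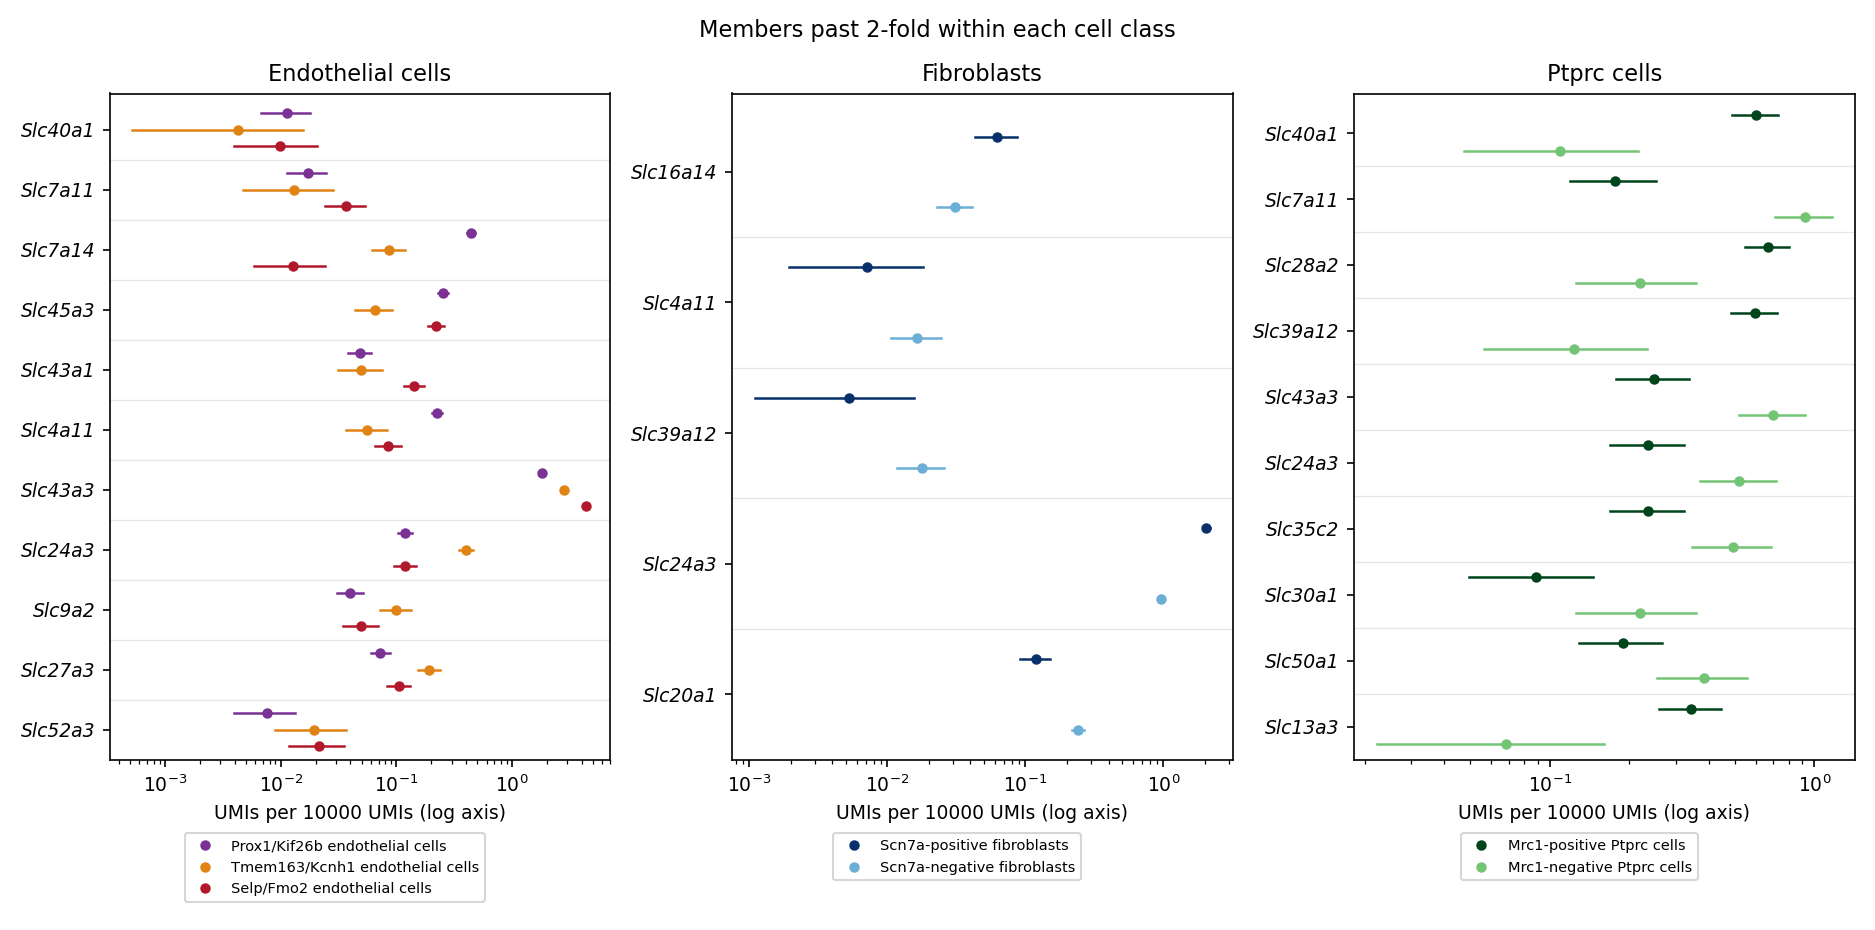
Levels of the members past 2-fold within endothelial cells (left), fibroblasts (middle) and Ptprc cells (right), in UMIs per 10000 UMIs of the subgroup on log axes. Points are levels and lines 95% exact Poisson intervals. In endothelial cells Slc7a14 is highest in Prox1/Kif26b cells (0.441) and Slc43a3 in Selp/Fmo2 cells (4.32), in fibroblasts Slc24a3 is higher with Scn7a (2.04 against 0.960), and in Ptprc cells Slc40a1 is higher with Mrc1 (0.601 against 0.110).

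Melanocytes were marked by 1 member above the others. Slc24a5, the sodium/calcium-potassium exchanger of the melanosome pathway whose variants affect pigmentation, stood at 9.59 (8.81 to 10.4) in melanocytes, 0.0577 (0.0478 to 0.0689) in fibroblasts, 0.0484 (0.0427 to 0.0547) in endothelial cells and 0.0247 (0.00907 to 0.0538) in Ptprc cells. Its ratio to fibroblasts and endothelial cells together was 188 (165 to 215), with 156 in the first barcode run and 499 in the second, which holds 10 melanocytes. Thinned to equal depth, 63.4% of melanocytes had a Slc24a5 UMI, against 1.57% of fibroblasts, 1.11% of endothelial cells and 0.962% of Ptprc cells. The levels outside melanocytes lay between 0.0247 and 0.0577. Myef2 overlaps the gene on the opposite strand, and since strand use is not given in the sources used here, reads from both cannot be told apart.

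Slc4a3 (2.54, 1.45 to 4.15) and Slc40a1 (2.34, 1.16 to 4.21) were the other members higher in melanocytes than in fibroblasts and endothelial cells together. They rested on 16 and 11 UMIs, of which 0 and 1 were in the second run. With the stricter marker rule their ratios were 4.27 and 3.82. The pooled reference holds 53715592 endothelial and 20813442 fibroblast UMIs. Both genes exceeded their endothelial level, but neither differed from its fibroblast level beyond counting error. All told, 3 of 45 members were higher and 22 lower, where 12.9% and 33.6% of 2822 genes were, and the median log2 ratio was -0.88 over members and -0.28 over all genes. The lower count is limited by the 579586 UMIs of the 114 melanocytes. Of the 22, 11 had 0 UMIs in melanocytes and 7 had between 1 and 3, and the intervals of 13 held 1. Where at least 10 UMIs were expected in the smaller group, a limit chosen after seeing the data, 4 of 17 members were lower, Slc25a25, Slc43a3, Slc24a3 and Slc9a8, and 0 higher, since Slc24a5 itself falls short of that limit. For these 4 the ratios were 0.374 (0.161 to 0.738), 0.150 (0.0958 to 0.223), 0.422 (0.218 to 0.737) and 0.418 (0.228 to 0.702). The melanocyte interval of Slc24a3 held the endothelial level, and that of Slc25a25 overlapped the fibroblast interval. Slc39a1, with 0 UMIs, was at least 2.44-fold lower by the level of 3 UMIs, and the exact interval of its ratio ran from 0 to 0.504. Beyond those, the lower members in this comparison were Slc9a2, Slc11a1, Slc23a3, Slc19a3, Slc19a2, Slc30a1, Slc39a12, Slc1a2, Slc28a2, Slc4a11, Slc52a3, Slc35c2, Slc13a3, Slc2a10, Slc7a14, Slc25a31 and Slc27a3. Of the other transporters, 1 of 16 was higher (Mfsd9) and 7 lower. Mfsd9 rested on 3 UMIs in melanocytes, and its interval held 1 (0.633 to 9.305). Among the lower ones, the intervals of Slco5a1, Abcb6 and Slco4a1, each with 0 UMIs there, and of Mfsd4a, with 1 UMI, held 1.

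The carriers of sugars and nucleotide sugars with at least 100 UMIs were found in each main group, whereas Slc2a6 and Slc2a2 had 21 and 8 UMIs over all cells. Slc2a10, a glucose carrier family protein mutated in arterial tortuosity syndrome, stood at 0.160 (0.144 to 0.179) in fibroblasts, 0.108 (0.0995 to 0.117) in endothelial cells, 0.0288 (0.0116 to 0.0594) in Ptprc cells and 0.0173 in melanocytes (1 UMI). Slc2a8, an intracellular hexose carrier, stood at 0.0774, 0.0393, 0.0536 and 0.0863 and Slc50a1, a sugar efflux protein, at 0.287, 0.363, 0.247 and 0.242 in this order of groups. Slc35c2 of the Golgi, which bears on the fucosylation of Notch, stood at 0.156 (0.139 to 0.174), 0.115 (0.107 to 0.125), 0.313 (0.247 to 0.392) and 0.0518 (0.0107 to 0.151), with a ratio of 2.47 (1.93 to 3.13) for Ptprc cells. Slc35c1, the GDP-fucose carrier, stood at 0.0226, 0.0331, 0.0577 and 0.0345, and Slc35f5 at 0.377, 0.288, 0.342 and 0.242.

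Mitochondrial carriers were likewise broad. Slc25a12, the aspartate/glutamate carrier, stood at 1.05, 0.741, 1.14 and 0.949 in fibroblasts, endothelial cells, Ptprc cells and melanocytes. Slc25a25, a calcium-regulated carrier of ATP-magnesium and phosphate, stood at 0.262 (0.240 to 0.285), 0.410 (0.394 to 0.428), 0.643 (0.546 to 0.752) and 0.138 (0.0596 to 0.272), and Slc25a44, which imports branched-chain amino acids, at 0.124, 0.107, 0.120 and 0.0690. Slc25a31 had 27 UMIs over all cells, of which 4 were in Ptprc cells.

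Vitamin, acetyl-CoA and fatty acid carriers complete the set. Slc23a2, the sodium-coupled importer of ascorbate, a cofactor of collagen hydroxylation, stood at 1.01, 0.754, 1.495 and 0.949 in the same order of groups. The thiamine carriers Slc19a2 (0.0735, 0.0588, 0.0453 and 0 UMIs) and Slc19a3 (0.0192, 0.0123, 0 UMIs and 0 UMIs) had few UMIs in Ptprc cells and melanocytes, where 0 UMIs allow up to 0.0124 and 0.0518. Slc33a1, which brings acetyl-CoA into the endoplasmic reticulum, stood at 0.488, 0.454, 0.416 and 0.431, the narrowest spread of the 41 members. Slc27a4 stood at 0.0966, 0.0830, 0.0742 and 0.0863 and Slc27a3 at 0.0682, 0.114, 0.0330 and 0.0173 UMIs per 10000.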

How the data were processed

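The data were 1 pooled matrix of mouse mitral valve droplet RNA-Seq, listed with 3 mgR samples to which its cells cannot be traced. Per the methods, the authors dissociated valves and sorted viable cells or nuclei, and the submitters' processing notes name Cell Ranger 7.1.0 and mm10. Filtering and LogNormalize scaling were done in Seurat. As deposited, each value is the natural log of 1 more than the gene's UMIs scaled to 10000 per cell. Strand use in counting is not given in the sources used here.

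Whole UMIs and each cell's total (503 to 23127, median 5349) were recovered from these values, 100% of them within 0.02 of a whole number. Of 3265 listed genes, 1 with 11958 empty values was left out. No count model was fitted, because a pooled matrix holds no replicates. The 53 members and all lists were chosen with earlier results of these data known. Cells were grouped by marker UMIs, in the order melanocytes, fibroblasts and endothelial cells, and then Ptprc cells. No doublet caller was run, and cells with markers of both fibroblasts and endothelial cells were left out. Levels, ratios and shares were computed with exact Poisson and binomial intervals at 95% over 8 comparisons. Every member with at least 100 UMIs was to be named with its level in the 4 main groups, and each member past 2-fold in its comparison, but 1 member and a few other genes are not reported here. All 53 members matched GENCODE M21 (GRCm38) by symbol.

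Data were simulated for fibroblasts against endothelial cells over 3264 genes, with 200 genes changed 4-fold. In these data 100% of the changed genes and 0.981% of unchanged tested genes passed 2-fold, and 95.5% of intervals held the true ratio. Changed genes and intervals were taken from genes with at least 100 expected UMIs. Group counts were drawn from Poisson distributions, which the intervals assume. The simulation therefore checks the calculation and cannot show the effect of UMIs that gather in few cells. Alternatives were a stricter marker rule, Leiden clusters (2000 variable genes, 50 components, 15 neighbours, resolution 0.5) in place of the rule, cells with a Ptprc UMI left out, cells of at least 2000 UMIs, UMIs on listed genes as the total, means over cells, each barcode run alone, other minimum UMIs, and a fold of 3. Clusters replaced the rule of the main groups only. The Scn7a, gene pair and Mrc1 splits were still made by marker UMIs within the clusters. Python 3.11.15, numpy 2.4.6, pandas 2.3.3, scipy 1.17.1, scanpy 1.11.5, igraph 0.11.9 and matplotlib 3.10.9 were used.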

Additional observations from a re-analysis of the deposited data

Results flagged for a closer look

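Solute carrier transcripts were also found in cells outside the comparisons. The 3284 cells that met no marker rule had 14.2 member UMIs per 10000, and the 421 cells with both fibroblast genes and Egfl7 had 14.5, both between the endothelial (12.8) and the fibroblast level (15.1). These values are singled out because the cells enter no comparison, and what the cells are was not tested. The first had a median depth of 4361 UMIs and the second of 8709.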

How the results depend on the processing

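Of 96 counts of members past 2-fold under an alternative, 73 stayed within 1.5 times the reported count and 23 did not. Of 567 ratios of single genes, 495 lay inside the interval of the reported ratio, 71 outside it and 1 reversed. The counts for fibroblasts against endothelial cells and for Ptprc cells are among those that stayed within 1.5 times. The count in the Scn7a split (5) was 3 with the stricter marker rule, 3 with means over cells, 3 in the first barcode run, 2 in the second, 15 with no minimum of UMIs, 3 with a minimum of 50 UMIs, 1 with a fold of 3, and 3 with at least 10 UMIs expected in the smaller group, an alternative chosen after seeing the data. The count for Prox1/Kif26b cells (5) was 3 in the first run, 8 in the second, 11 with no minimum and 2 with a fold of 3. The count for Tmem163/Kcnh1 cells (7) was 4 with clusters, 15 with no minimum and 4 with a fold of 3, and that for Selp/Fmo2 cells (6) was 3, 12 and 1. The count in the Mrc1 split (10) was 6 with clusters, 5 in the second run, 21 with no minimum and 5 with a fold of 3, and that for melanocytes (25) was 4 with at least 10 UMIs expected. Without thinning, the shares of cells with a member UMI were 98.9% in fibroblasts, 97.3% in endothelial cells and 97.4% in Ptprc cells. Slc7a11 in Selp/Fmo2 cells, reported at 2.28, reversed to 0.226 with the stricter rule, from 1 and 19 UMIs. Calls that were lost under some alternatives were those of Slc13a3 between fibroblasts and endothelial cells, of Slc16a14, Slc20a1 and Slc24a3 in the Scn7a split (Slc24a3 at 1.53 in the second run), of Slc43a3 in Prox1/Kif26b cells (up to 0.523) and in Selp/Fmo2 cells (1.998 with clusters), of Slc9a2 (1.74) and Slc27a3 (1.98) in Tmem163/Kcnh1 cells with clusters, and of Slc7a11 (0.976, first run) and Slc39a12 (1.68, second run) in the Mrc1 split. The cause was not tested. No paired analysis was possible because the labels give a single group and the cells carry no replicate number, and for the same reason no replicate could be left out. Depth limits melanocytes most, since 0 of their UMIs allow levels of up to 0.0518 per 10000.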
